A study of Mus musculus with 20 samples.

Results

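The mitochondrial calcium uniporter and exchanger genes are 8 nuclear genes whose products carry calcium across the inner mitochondrial membrane or govern that flux. They were chosen by name, with earlier results of these data known. They are *Mcu*, *Mcub*, *Smdt1*, *Micu2*, *Micu3*, *Mcur1*, *Letm1* and *Slc8b1*, and all 8 were found among the 28632 genes of the count table. Each had at least 42 counts in every library, so none was lost to a filter on low values.

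RNA was read from pancreatic islets of 12-week-old mice of both sexes, in 20 libraries. Mice carried loxP-flanked alleles of *Mfn1*, *Mfn2* or both, the genes of the mitofusins that fuse outer mitochondrial membranes, and Ins1-Cre, a recombinase driven from the insulin 1 locus of β-cells, deleted them on a C57BL/6N background. The groups were Ctrl (n = 6), β-Mfn1KO (n = 4), β-Mfn2KO (n = 5) and β-Mfn1/2DKO (n = 5), of which β-Mfn1KO lacked *Mfn1*, β-Mfn2KO lacked *Mfn2* and β-Mfn1/2DKO lacked both in β-cells. Controls are wild type by their labels, but by the methods of the study they pool animals with Cre alone and animals with floxed alleles alone. Islets were freed by collagenase and kept in culture before lysis, and their other endocrine, vascular and immune cells keep both genes. The RNA is that of whole islets, in which fewer cells of a type and less RNA per cell cannot be told apart. The comparisons ask whether loss of 1 or both mitofusins is accompanied by a change in the mRNAs of the calcium machinery.

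As background, calcium that enters the cytosol of a glucose-stimulated β-cell is taken up into the matrix, down the potential across the inner membrane, through a channel complex called the uniporter. *Mcu* encodes the pore, gatekeeper proteins with calcium-binding EF hands keep the pore closed at resting calcium, and separate exchangers return calcium to the cytosol. In the matrix, calcium raises the activity of dehydrogenases that feed the respiratory chain, and so the supply of ATP for insulin secretion. Mitofusin 2 is also known for its part in contacts between mitochondria and the endoplasmic reticulum (ER), the store from which part of this calcium comes.

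Levels are given as normalised read counts, which are counts scaled by TMM (a factor for each library that offsets differences in RNA composition) to the mean library size of the 20 libraries. Genes are said to have risen or fallen where the quasi-likelihood test of edgeR gave a p under 0.05 after adjustment over all 28632 genes by the method of Benjamini and Hochberg. Differences are on the log2 scale, each with its standard error (SE), and p-values measure the spread between these samples, since the labels do not say what a replicate number stands for. Depth was 12400687 to 20329064 counts in Ctrl, 15745680 to 16685381 in β-Mfn1KO, 15110046 to 59533407 in β-Mfn2KO and 65533388 to 122947313 in β-Mfn1/2DKO. Every β-Mfn1/2DKO library was thus deeper than every library of the other groups. Depth and genotype cannot be told apart against Ctrl and β-Mfn1KO. Against β-Mfn2KO the depths did not overlap either, and only β-Mfn2KO replicates 4 and 5, at 55962873 and 59533407, came near. The deleted genes followed the labels, with a log2 difference of −1.31 for *Mfn1* in β-Mfn1KO, −1.15 for *Mfn2* in β-Mfn2KO, and −1.07 and −0.75 for *Mfn1* and *Mfn2* in β-Mfn1/2DKO. The islet label was met by all 10 β-cell markers, of which none was at 0, and the summed β-cell markers were at 6057558 to 9684565 in Ctrl and 2681267 to 3638490 in β-Mfn1/2DKO. All 10 of these markers fell in β-Mfn1/2DKO. Of the other cell types, 2 libraries stood apart by macrophage and leukocyte markers (7 genes, summed), Ctrl replicate 6 at 24889 and β-Mfn2KO replicate 5 at 34228, while the other 18 were at 2797 to 6992. The same 2 libraries, called macrophage-high below, also stood apart by 5 mesenchyme markers, at 12381 and 13255 against 726 to 3940 in the other 18. β-Mfn1/2DKO replicates 4 and 5 stood apart by 12 acinar markers, at 941530 and 2434372, against 6102 to 409791 elsewhere. Results that rest on these libraries are given with and without them.

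Among the 8 genes, *Micu3* was the only one to pass the test between β-Mfn1/2DKO and Ctrl, where it fell by 0.34 on the log2 scale. *Slc8b1* was higher and *Smdt1* and *Micu3* were lower in β-Mfn1/2DKO than in β-Mfn1KO. The pore gene *Mcu* did not pass the test in any comparison, and loss of 1 mitofusin alone left all 8 genes short of the threshold. Of the 8 genes, 0 passed in β-Mfn1KO against Ctrl, where 0.0279% of all genes did, and 0 passed in β-Mfn2KO against Ctrl, where 0.0559% did. At an unadjusted p under 0.05 these counts were 2 and 0, against 7.44% and 4.22% of all genes, and DESeq2 also called 0 in both. In β-Mfn1/2DKO against Ctrl 1 gene passed (12.5%), where 16.5% of all genes passed and 33.6% of the 12274 genes with a mean of at least 100 normalised counts. The median log2 difference of the 8 genes in that comparison was 0.02, beside 0.06 over all genes and 0.03 over the 12274, and the median absolute change was 0.13 beside 0.16 over the 12274.

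**Figure D1:**
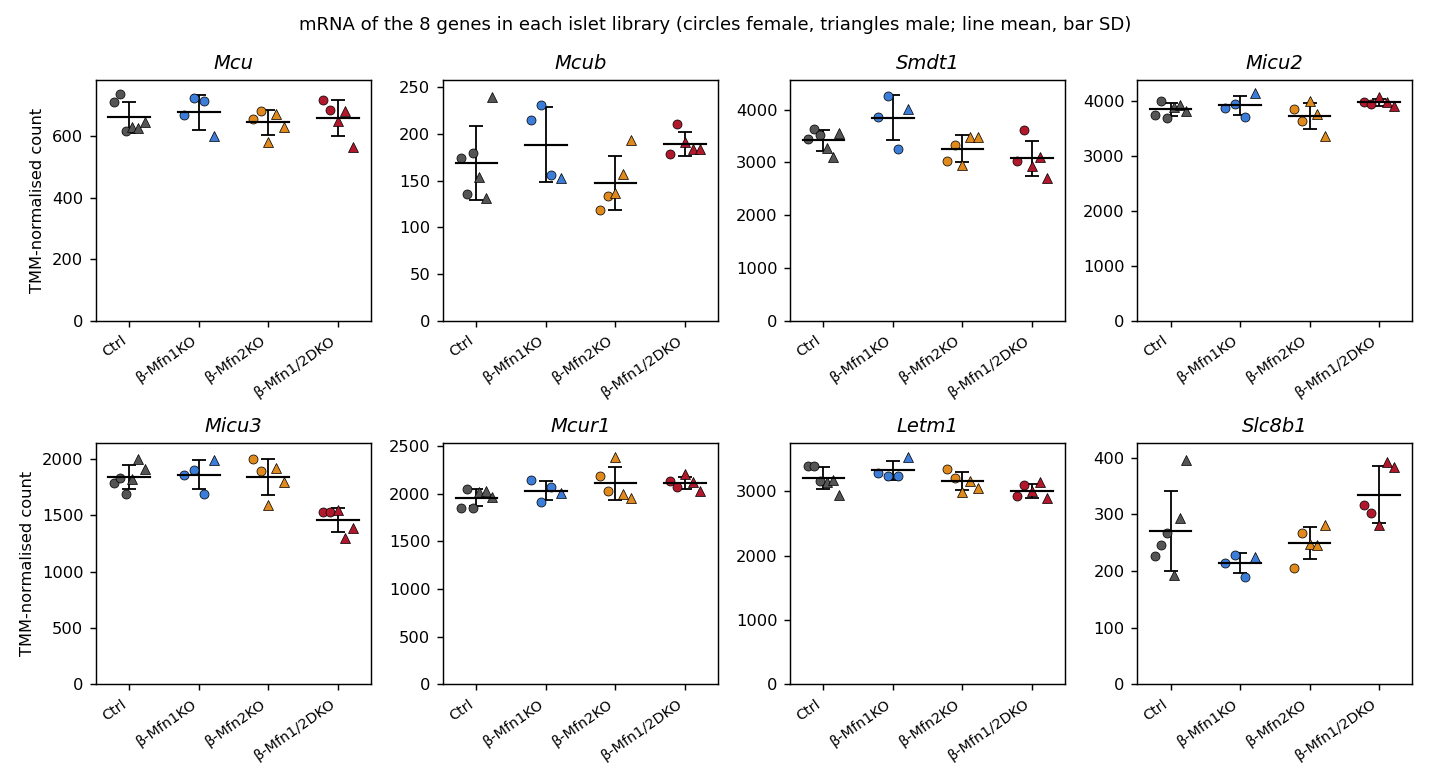
TMM-normalised counts (vertical axes, linear from 0) of the 8 genes in each of the 20 libraries by genotype (circles female, triangles male), with the mean as a line and the SD as a bar (n = 6, 4, 5 and 5). The 5 β-Mfn1/2DKO libraries of *Micu3* sit between 1299.98 and 1548, under the other 15, while those of *Mcu* lie within the range of the other genotypes but for 1 library at 566.

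*Mcu*, the pore-forming subunit (ENSMUSG00000009647; GRCm38 chr10:59446984-59616692, minus strand), did not pass the test in any comparison. It stood at 617 to 738 in Ctrl (median 639), at 669.9, 726, 715 and 602 in β-Mfn1KO, at 657, 684, 581, 673 and 630.04 in β-Mfn2KO and at 719, 686, 650.2, 683 and 566 in β-Mfn1/2DKO. All 4 groups overlapped, and in β-Mfn1/2DKO against Ctrl the log2 difference was −0.00 (SE 0.07, adjusted p = 0.996), with a 95% interval from 10.1% lower to 10.8% higher. The intervals in the single knockouts were of like width, −8.84% to 14.8% in β-Mfn1KO and −12.5% to 8.37% in β-Mfn2KO. These intervals are not adjusted for the number of genes, whereas the test is. An interval can thus lie wholly below no change without the gene passing. In β-Mfn1KO against Ctrl that of *Slc8b1* was −37.1% to −0.34% (adjusted p = 0.67). The smallest change in *Mcu* that would pass at this replication and depth was not tested.

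*Mcub* (ENSMUSG00000027994; chr3:129914960-129970206, minus strand) encodes the paralogue of the pore that joins the complex and lowers its conductance. It stood at 131 to 239.7 in Ctrl (median 164), at 215, 231, 156 and 152 in β-Mfn1KO, at 118, 134, 137, 157 and 194 in β-Mfn2KO and at 179, 211, 192, 183 and 184 in β-Mfn1/2DKO. The highest value in Ctrl and the highest in β-Mfn2KO were those of the 2 libraries with high macrophage markers. *Mcub* did not pass the test against Ctrl in β-Mfn1/2DKO (0.17, SE 0.16, adjusted p = 0.55) nor against β-Mfn2KO (0.34, SE 0.16, adjusted p = 0.19). With depth class as a covariate the difference against Ctrl had the opposite sign (−0.26, adjusted p = 0.76). Without the 2 macrophage-high libraries, a choice made after seeing the data, *Mcub* was higher in β-Mfn1/2DKO than in β-Mfn2KO (0.46, adjusted p = 0.038, with 0.038 to 0.79 over the alternatives). These libraries were also high in mesenchyme markers, and the part of either cell type in these levels was not tested beyond this.

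*Smdt1* (ENSMUSG00000022452; chr15:82338959-82349091, plus strand) encodes EMRE, a small membrane protein without which the mammalian pore does not conduct and which ties the gatekeepers to it. It stood at 3110 to 3626 in Ctrl (median 3479), at 3858, 4256, 3256 and 4011 in β-Mfn1KO, at 3024, 3333, 2961, 3490.2 and 3486 in β-Mfn2KO and at 3036, 3613, 2942, 3109 and 2707 in β-Mfn1/2DKO. The 3 highest libraries of all were β-Mfn1KO and the lowest was β-Mfn1/2DKO replicate 5, and the groups overlapped. *Smdt1* was lower in β-Mfn1/2DKO than in β-Mfn1KO (log2 difference −0.32, SE 0.08, adjusted p = 0.0066), but neither group passed the test against Ctrl (−0.15, adjusted p = 0.18, and 0.17, adjusted p = 0.66). Without the 2 acinar-high libraries the difference was −0.24 (adjusted p = 0.073). With total-count scaling, which moved the median gene of this comparison by 0.16, it was −0.15 (adjusted p = 0.26), and over the alternatives the adjusted p ran from 0.000297 to 0.26. In β-Mfn1/2DKO against Ctrl *Smdt1* passed by DESeq2 (−0.18, adjusted p = 0.0497, with 0.0497 to 0.94 over the alternatives). *Smdt1* shares 245 exon bases with the same-strand gene *Pheta2*, which had a mean of 37.9 counts beside 3238.

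The stretches before the transcription starts of these 3 genes are shown because the genes encode the pore and the subunits that set whether it conducts, and because the stretches differ in the motifs they hold. They are the 250 bases upstream of the start in RefSeq (GRCm38.p6), read on the coding strand. For *Mcu* and *Mcub*, on the minus strand, that start is the highest coordinate of the interval given above. For *Smdt1* the start lies 7087 bases inside the longer interval of GENCODE. Capitals mark CCAAT (or ATTGG, its reverse complement) in *Mcu* and *Mcub* and the cAMP response element TGACGTCA in *Smdt1*.
Mcu, chr10:59616693-59616942, minus strand: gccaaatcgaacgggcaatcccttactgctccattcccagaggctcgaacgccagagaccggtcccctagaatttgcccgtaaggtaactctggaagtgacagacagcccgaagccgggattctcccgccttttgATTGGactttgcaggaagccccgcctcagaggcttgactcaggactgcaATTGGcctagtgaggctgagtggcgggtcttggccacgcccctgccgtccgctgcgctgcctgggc
Mcub, chr3:129970207-129970456, minus strand: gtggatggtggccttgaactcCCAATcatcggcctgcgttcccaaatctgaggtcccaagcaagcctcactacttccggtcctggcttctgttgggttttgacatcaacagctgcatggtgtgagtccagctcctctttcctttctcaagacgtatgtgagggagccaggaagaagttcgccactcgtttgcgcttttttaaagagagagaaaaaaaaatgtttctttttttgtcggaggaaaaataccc
Smdt1, chr15:82345796-82346045, plus strand: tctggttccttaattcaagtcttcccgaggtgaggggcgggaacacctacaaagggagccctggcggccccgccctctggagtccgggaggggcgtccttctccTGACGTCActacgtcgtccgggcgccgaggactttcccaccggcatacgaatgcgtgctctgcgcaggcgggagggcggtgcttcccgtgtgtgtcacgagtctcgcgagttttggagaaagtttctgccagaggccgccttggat
CCAAT was present at 115 and 66 bases upstream of *Mcu* and at 229 bases upstream of *Mcub*. It is common, on either strand of 33.8% of 32851 promoters searched over the same length. TGACGTCA, found in 1.55% of promoters, lay 146 bases before the start of *Smdt1*, which also held GGGCGG or its complement at 216, 181 and 73 bases upstream (32.7% of promoters). The same search, on both strands, was made for CCGGAAG (6.91% of promoters), CACGTG (6.02%), TGATGCAA (0.791%), TATAAA (12.4%) and the NRF1 site (0.782%), of which *Mcub* held CCGGAAG at 178 bases upstream on the opposite strand. The table holds 6 of the 8 genes, without *Micu3* and *Slc8b1*, and of the other members GGGCGG lay before *Letm1*, *Mcur1* and *Micu2* and CCAAT before *Letm1*. A match is a description of the letters and was not tied to the mRNA levels.

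Of the gatekeepers, *Micu2* (ENSMUSG00000021973; chr14:57916261-57999262, minus strand) and *Micu3* (ENSMUSG00000039478; chr8:40307458-40386308, plus strand) encode EF-hand proteins that set the calcium threshold of the pore, and *Micu3* is known as an enhancer of uptake in excitable cells. *Micu2* ranged from 3371 to 4147 over the 20 libraries and did not pass the test in any comparison of the 20 libraries with TMM scaling. With total-count scaling it was higher in β-Mfn1/2DKO than in Ctrl, β-Mfn2KO and β-Mfn1KO (0.19, 0.21 and 0.19), where that scaling moved the median gene by 0.14, 0.11 and 0.16. It was also higher than in β-Mfn2KO when β-Mfn2KO replicate 3 was left out (0.14, adjusted p = 0.041). In β-Mfn1/2DKO its 5 libraries lay between 3915 and 4073 (coefficient of variation 1.5%), and its log2 difference against Ctrl was 0.05 (SE 0.04, adjusted p = 0.55).

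*Micu3* stood at 1689.7 to 2005 in Ctrl (median 1829.7). It was at 1862, 1905, 1686 and 1993 in β-Mfn1KO and at 2003, 1894, 1594, 1918 and 1796 in β-Mfn2KO. In β-Mfn1/2DKO it was at 1531, 1529, 1548, 1299.98 and 1389.97. These 5 libraries were below all 15 others, which held for 2.35% of all genes and 5.21% of the 12274 well-expressed genes, and the other 3 genotypes overlapped. *Micu3* fell in β-Mfn1/2DKO against Ctrl (log2 difference −0.34, SE 0.06, adjusted p = 0.00056), a level 20.7% lower with a 95% interval of 13.3 to 27.6% lower. It was also lower than in β-Mfn2KO (−0.33, SE 0.06, adjusted p = 0.0011) and than in β-Mfn1KO (−0.35, SE 0.07, adjusted p = 0.00084). None of these reached 1.5-fold. The order of the other genotypes, with means of 1862 in β-Mfn1KO, 1842 in Ctrl and 1841 in β-Mfn2KO, was within their spread (SD 107 to 157).

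The 2 lowest *Micu3* values belonged to the 2 acinar-high libraries, and without them the log2 difference against Ctrl was −0.24 (adjusted p = 0.018). Over all alternatives it lay between −0.37 and −0.19, with an adjusted p from 2.04e-07 to 0.11. The call was lost only with depth class as a covariate (−0.36, adjusted p = 0.11), in which 2 deep β-Mfn2KO libraries alone separate depth from genotype. Of these, replicate 4 had the highest acinar markers outside β-Mfn1/2DKO (409791) and replicate 5 was macrophage-high (34228). This setting thus cannot separate depth from cell content, and it called 2.54% of all genes beside 16.5%. Against β-Mfn2KO the call of *Micu3* was lost among the deep libraries alone (−0.30, adjusted p = 0.066). Against β-Mfn1KO it was lost with total-count scaling (−0.18, adjusted p = 0.054) or depth class as a covariate (−0.37, adjusted p = 0.086). The 2 deep libraries of β-Mfn2KO stood at 1918 and 1796 for *Micu3*, above all 5 β-Mfn1/2DKO libraries. The summed β-cell markers were lower in all 5 β-Mfn1/2DKO libraries too, and 12 of 12 acinar and 5 of 6 endothelial markers rose in that genotype. Without the 2 acinar-high libraries 0 of 12 acinar markers rose (median log2 difference −0.85), 3 of 6 endothelial markers did and 9 of 10 β-cell markers fell. Their part in the fall of *Micu3* was not tested.

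**Figure D2:**
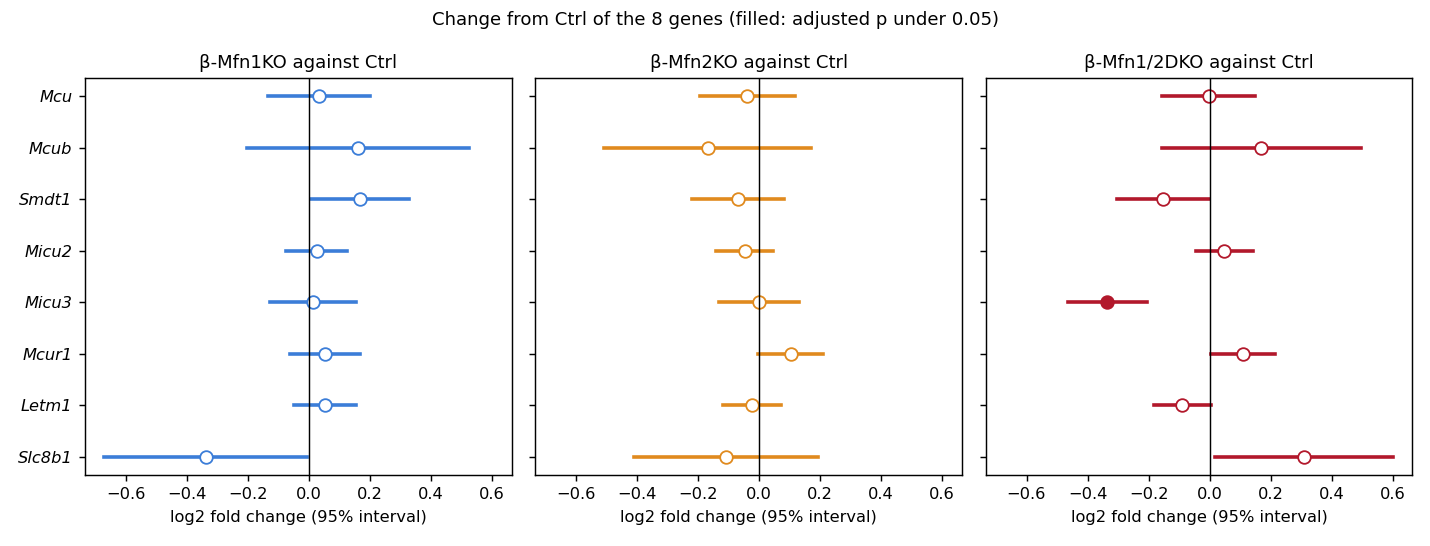
Log2 fold change of the 8 genes against Ctrl in each knockout (horizontal axes), as points with 95% intervals from edgeR, filled where the adjusted p is under 0.05. The only filled point is *Micu3* in β-Mfn1/2DKO, at −0.34.

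The genes whose pattern was most like that of *Micu3* were *Hnrnpa2b1*, *Dnaja1* and *Galnt11*. Likeness was measured over the 20 libraries as the root mean square difference in log2 normalised count after centring each gene on Ctrl, among 12274 genes, and was 0.089, 0.092 and 0.095 where *Micu3* itself departed by 0.19. *Hnrnpa2b1*, an RNA-binding protein, had a log2 difference of −0.30 in β-Mfn1/2DKO against Ctrl. *Dnaja1*, a co-chaperone, had −0.33 and *Galnt11*, a glycosyltransferase, had −0.25.

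*Mcur1* (ENSMUSG00000021371; chr13:43538393-43560191, minus strand) encodes an inner membrane protein that promotes assembly of the uniporter. It stood at 1846 to 2045 in Ctrl (median 1990.5), at 2138, 1908, 2069 and 2009.7 in β-Mfn1KO, at 2181, 2028, 2382, 1995 and 1950.2 in β-Mfn2KO and at 2132, 2069, 2205, 2122 and 2030.4 in β-Mfn1/2DKO. Of the 5 β-Mfn1/2DKO libraries 4 were above the highest Ctrl library, and all groups overlapped. The log2 difference against Ctrl was 0.11 in β-Mfn1/2DKO (SE 0.05, adjusted p = 0.17), 0.10 in β-Mfn2KO (adjusted p = 0.93) and 0.05 in β-Mfn1KO (adjusted p = 0.80). With total-count scaling *Mcur1* was higher in β-Mfn1/2DKO than in Ctrl (0.25, adjusted p = 0.0030) and than in β-Mfn1KO (0.22, adjusted p = 0.016). That scaling moved the median gene of these comparisons by 0.14 and 0.16.

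Of the exchangers, *Letm1* (ENSMUSG00000005299; chr5:33739673-33782817, minus strand) encodes an inner membrane protein of cation and proton exchange. It stood at 2939 to 3399 in Ctrl (median 3166), at 3277, 3234, 3241 and 3537 in β-Mfn1KO, at 3346, 3212, 2985, 3161 and 3055 in β-Mfn2KO and at 2919, 3095, 2997, 3146 and 2896 in β-Mfn1/2DKO. These last 5 were below all 4 of β-Mfn1KO, as held for 7.37% of all genes and 14.9% of the well-expressed, with a log2 difference of −0.14 (SE 0.05, adjusted p = 0.056). Against Ctrl it was −0.09 (SE 0.05, adjusted p = 0.21). The first of these lay close to the threshold, and *Letm1* passed it by DESeq2 (−0.17, adjusted p = 0.0014), with DESeq2 size factors (−0.17, adjusted p = 0.019), with the low-count filter (−0.16, adjusted p = 0.010), with counts drawn down to 1 depth (−0.19, adjusted p = 0.021) and without the macrophage-high libraries (−0.14, adjusted p = 0.047). Against Ctrl it passed by DESeq2 (−0.12, adjusted p = 0.013) and with the filter (−0.11, adjusted p = 0.044). With total-count scaling both differences had the opposite sign (0.02, adjusted p = 0.80, and 0.05, adjusted p = 0.52). Over the alternatives the adjusted p ran from 0.0014 to 0.80 against β-Mfn1KO and from 0.013 to 0.89 against Ctrl.

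*Slc8b1* (ENSMUSG00000032754; chr5:120511168-120534024, plus strand) encodes NCLX, the exchanger that moves calcium out of the matrix in return for sodium. It stood at 193 to 395 in Ctrl (median 256). It was at 215, 228, 189 and 225 in β-Mfn1KO and at 206, 268, 248, 246 and 281 in β-Mfn2KO. In β-Mfn1/2DKO it was at 316, 302, 282, 392 and 384. The β-Mfn1/2DKO libraries were above all of β-Mfn1KO and all of β-Mfn2KO, as held for 10.8% and 6.56% of all genes and 17.1% and 13.0% of the well-expressed. Against β-Mfn2KO the gap was narrow, with the lowest at 281.53 over the highest at 281.34. The β-Mfn1/2DKO libraries were not above Ctrl, where the macrophage-high replicate 6 was the highest library of all. *Slc8b1* was higher in β-Mfn1/2DKO than in β-Mfn1KO by 0.65 on the log2 scale (SE 0.16, adjusted p = 0.0062), or 56.5% with a 95% interval of 24.2 to 97.2%.

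In this comparison 3 of the 8 genes passed (37.5%), beside 17.4% of all genes and 35.1% of the well-expressed. *Slc8b1* was the 1 gene that also reached 1.5-fold, beside 6.71% of all genes and 10.3% of the well-expressed. Its 2 highest β-Mfn1/2DKO values were those of the acinar-high libraries, and without them the difference was 0.51 (adjusted p = 0.051, with 0.00095 to 0.36 over the alternatives). The call was also lost with depth class as a covariate (0.52, adjusted p = 0.36), with the acinar score as a covariate (0.53, adjusted p = 0.059) and with the authors' factors (0.61, adjusted p = 0.089). Against β-Mfn2KO the log2 difference of *Slc8b1* was 0.42 (SE 0.15, adjusted p = 0.063), so that *Micu3* was the 1 gene of 8 to pass there, beside 13.0% of all genes and 26.6% of the well-expressed. Against Ctrl it was 0.31 (SE 0.14, adjusted p = 0.15), and without Ctrl replicate 6 alone it was 0.45 (adjusted p = 0.015, with 0.012 to 0.87 over the alternatives). With replicate number as a block it was 0.44 (adjusted p = 0.012).

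**Figure D3:**
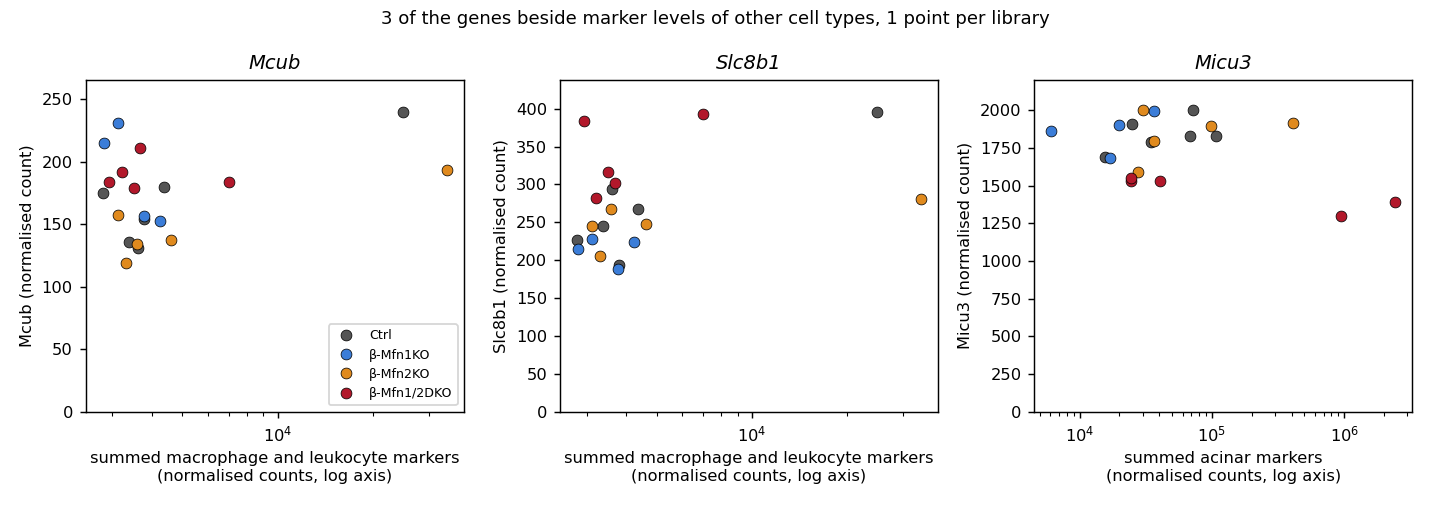
Normalised counts of *Mcub*, *Slc8b1* and *Micu3* (vertical axes) against the summed normalised counts of macrophage and leukocyte markers or of acinar markers (horizontal log axes), 1 point per library, coloured by genotype. The 2 libraries farthest right on the macrophage axis, which were also highest in mesenchyme markers, hold the highest Ctrl and β-Mfn2KO values of *Mcub* and *Slc8b1*. The 2 β-Mfn1/2DKO libraries farthest right on the acinar axis hold the lowest values of *Micu3*.

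The single knockouts and the double knockout were also set in 1 contrast, the effect of losing *Mfn1* where *Mfn2* is lost minus that where *Mfn2* is intact. It passed for 2 of the 8 genes beside 5.92% of all genes and 12.8% of the well-expressed. For *Slc8b1* it was 0.75 (SE 0.22, adjusted p = 0.040), from a log2 difference of −0.34 in β-Mfn1KO against Ctrl and of 0.42 in β-Mfn1/2DKO against β-Mfn2KO. For *Micu3* it was −0.35 (SE 0.09, adjusted p = 0.027), with 0.02 and −0.33 for the same steps. Neither passed without the acinar-high libraries (0.61, adjusted p = 0.14, and −0.26, adjusted p = 0.13). The adjusted p over the alternatives ran from 0.0090 to 0.17 for *Slc8b1* and from 0.0020 to 0.18 for *Micu3*. For *Smdt1* it was −0.25 (SE 0.11, adjusted p = 0.21), and for the other 5 genes it lay between −0.12 and 0.18. With the authors' factors *Letm1* passed (−0.31, adjusted p = 0.049) and *Slc8b1* did not (0.88, adjusted p = 0.13).

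Between β-Mfn2KO and β-Mfn1KO 0 of the 8 genes passed, beside 0.335% of all genes, with 1 at an unadjusted p under 0.05, where 13.0% of all genes and 22.6% of the well-expressed were, and 0 by DESeq2. That gene was *Smdt1*, at −0.24 (SE 0.08, adjusted p = 0.20). Without β-Mfn1KO replicate 3, the library of lowest *Smdt1* in its group, it was −0.31 (adjusted p = 0.043). Between males and females, with genotype in the fit, 0 of the 8 passed (0 by DESeq2) beside 0.126% of all genes, and *Mcu* came closest at −0.14 in males (SE 0.05, adjusted p = 0.32, unadjusted p = 0.012).

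Levels of different genes were compared per kilobase of exon, as normalised counts divided by the annotated exon length. In Ctrl the order was *Smdt1* at 2314 ± 132 per kb (SD, n = 6), *Micu2* at 1249 ± 37.9, *Letm1* at 332 ± 17.96, *Micu3* at 299 ± 17.4, *Mcur1* at 277 ± 12.7, *Mcub* at 128 ± 30.2, *Mcu* at 95.5 ± 7.29 and *Slc8b1* at 78.1 ± 20.3. The ranges of *Letm1* and *Micu3*, of *Micu3* and *Mcur1*, of *Mcub* and *Mcu* and of *Mcu* and *Slc8b1* overlapped between libraries, and the other neighbours were apart. In β-Mfn1/2DKO *Micu3* ranked below *Mcur1*, at 211 to 252 per kb against 287 to 312, where these 2 genes overlapped in Ctrl at 275 to 326 and 261 to 289. The spread also differed between genes, with a coefficient of variation in Ctrl of 23.5% for *Mcub* and 26.0% for *Slc8b1*, of which counting alone gives 13.4% and 10.7%, and 3.03% for *Micu2*, of which counting gives 2.76%.

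**Figure D4:**
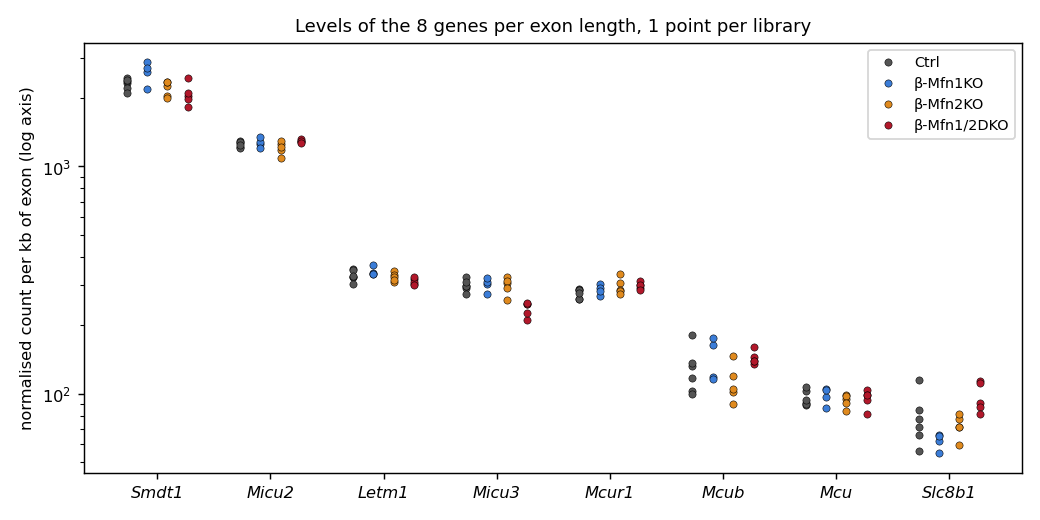
Normalised counts per kilobase of exon (vertical log axis) of the 8 genes, ordered by their Ctrl mean, 1 point per library and 1 colour per genotype. *Smdt1* and *Micu2* lie highest, *Letm1*, *Micu3* and *Mcur1* between 211 and 367, and *Mcub*, *Mcu* and *Slc8b1* below 182 per kb.

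The balance of these mRNAs was read as the ratio of each gene to *Mcu* within a library, which does not depend on how libraries are scaled. The ratios are of mRNA in whole islets and not of protein, and *Letm1* and *Slc8b1* encode exchangers separate from the uniporter. Per kilobase and relative to *Mcu*, *Micu3* was at 3.15 ± 0.311 (SD) in the 6 Ctrl libraries and at 2.50 ± 0.246 (SD) in the 5 of β-Mfn1/2DKO, with no overlap of the log2 ratios of counts. *Smdt1* was at 24.3 ± 1.63 and 21.9 ± 1.83, *Mcub* at 1.35 ± 0.349 and 1.52 ± 0.161, and *Slc8b1* at 0.825 ± 0.236 and 1.03 ± 0.219, all overlapping. The mean log2 ratio of *Micu3* to *Mcu* differed by −0.33 in β-Mfn1/2DKO (two-sided exact permutation p = 0.0043, the smallest that 462 splits allow), with an adjusted p of 0.091 over the 21 ratios tested. None of the 21 ratios passed after adjustment.

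Around the 8 genes, 31 other genes of mitochondrial calcium handling in 5 lists were read in the same fit. In either single knockout against Ctrl 0 of the 31 passed, and DESeq2 also called 0. At an unadjusted p under 0.05 there were 7 in β-Mfn1KO, beside 7.44% of all genes and 11.9% of the well-expressed, and 1 in β-Mfn2KO, beside 4.22% and 4.58%. In β-Mfn1/2DKO 9 rose and 6 fell (48.4%), beside 16.5% of all genes and 33.6% of the well-expressed. The lists were chosen with earlier results of these data known, so the share is a description and not an independent test. With depth class as a covariate 2 rose and 1 fell, with the counts drawn down to 1 depth 6 rose and 8 fell, and without the 2 acinar-high libraries 11 rose and 6 fell. Of all genes these settings called 2.54%, 13.7% and 11.2%. With total-count scaling, which called 22.2% of all genes, 14 rose and 5 fell, against a median shift of all well-expressed genes of 0.14.

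Of 6 partners and assembly factors of the uniporter, 1 fell and 0 rose in β-Mfn1/2DKO (median log2 difference −0.07). It was *Yme1l1*, an ATP-dependent protease of the inner membrane, at 7228 ± 483 in Ctrl against 5624 ± 232 in the double knockout (−0.36, SE 0.05, adjusted p = 2.2e-05), and it passed under every alternative tried. Of 3 relatives in inner membrane cation exchange 2 rose (median 0.25). *Letmd1*, which shares a domain with *Letm1*, went from 1022 ± 42.8 to 1215 ± 61.3 (0.25, SE 0.05, adjusted p = 0.0015), and *Ghitm*, an inner membrane protein linked to calcium and proton exchange, from 13993 ± 2188 to 18721 ± 2157 (0.42, SE 0.11, adjusted p = 0.011). Both calls were lost with depth class as a covariate, and that of *Letmd1* also with counts drawn down or the authors' factors.

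Of 8 genes that bring calcium from the ER to the outer membrane 4 rose and 0 fell (median 0.21, beside 0.06 over all genes). *Vdac3*, a pore of the outer membrane, went from 4060.0 ± 459.6 in Ctrl to 6552 ± 899.6 in β-Mfn1/2DKO (0.69, SE 0.09, adjusted p = 1e-05). Its relative *Vdac1* went from 6943 ± 477 to 8488 ± 1034 (0.29, SE 0.08, adjusted p = 0.011), with overlap. *Itpr2*, an inositol trisphosphate receptor of the ER, went from 1202 ± 371 to 1904 ± 142 (0.67, SE 0.15, adjusted p = 0.0026), and *Hspa9*, a matrix chaperone also found at these contacts, from 25407 ± 4022 to 35699 ± 3202 (0.49, SE 0.11, adjusted p = 0.0037). The calls of *Vdac3*, *Vdac1* and *Hspa9* were lost with depth class as a covariate. That of *Vdac1* was also lost with counts drawn down (0.24, adjusted p = 0.051), and that of *Itpr2* with the authors' factors (0.59, adjusted p = 0.11).

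**Figure D5:**
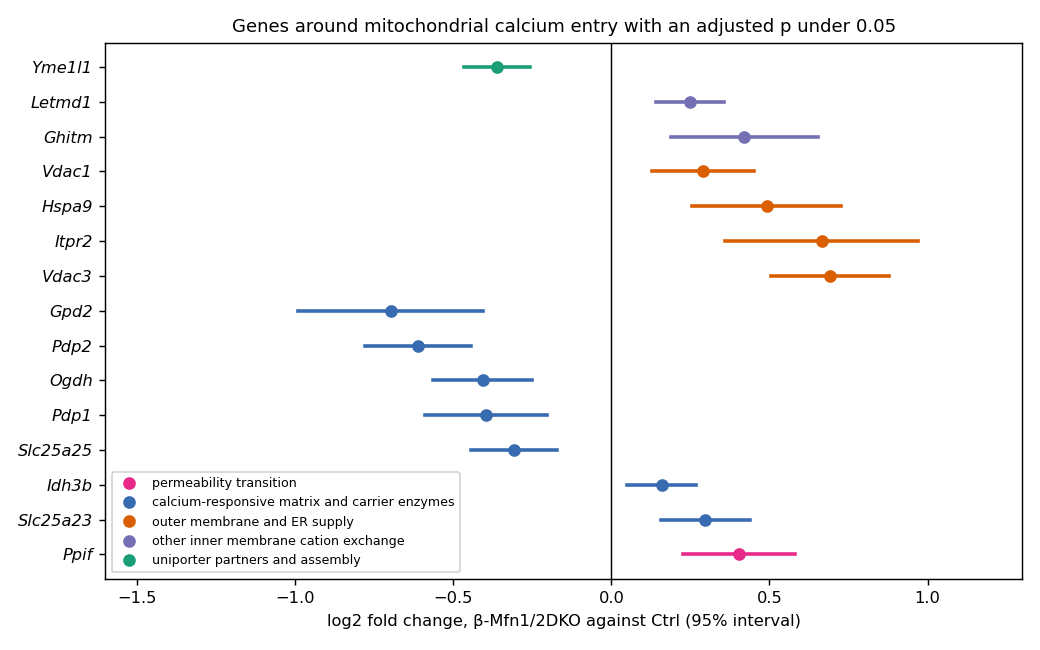
Log2 fold change in β-Mfn1/2DKO against Ctrl with 95% intervals (horizontal axis) of the 15 of 31 further calcium-handling genes with an adjusted p under 0.05, coloured by list. The 4 outer membrane and ER genes lie to the right of 0 and 5 of the 7 matrix and carrier genes to the left.

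Of 13 matrix and carrier enzymes tied to calcium 5 fell and 2 rose (median 0.00). *Pdp2*, a phosphatase of pyruvate dehydrogenase that unlike its relative *Pdp1* is not itself calcium-sensitive, went from 734 ± 87.6 to 479.99 ± 32.4 (−0.61, SE 0.08, adjusted p = 1.2e-05). *Pdp1*, given after its value was seen, fell as well, from 423 ± 65.9 to 321 ± 18.5 (−0.40, adjusted p = 0.0042). *Ogdh*, the calcium-activated subunit of 2-oxoglutarate dehydrogenase, went from 11617 ± 838 to 8761 ± 318 (−0.41, SE 0.08, adjusted p = 0.00049). *Gpd2*, the glycerol phosphate dehydrogenase of the inner membrane, went from 6547 ± 427 to 4037 ± 301 (−0.70, SE 0.14, adjusted p = 0.0012), and with depth class as a covariate its log2 difference was 0.01. The carrier *Slc25a25*, which has EF hands, went from 2248 ± 160.2 to 1816 ± 169.6 (−0.31, SE 0.07, adjusted p = 0.0018). Listed apart, *Ppif*, which encodes cyclophilin D of the permeability transition pore, rose from 668 ± 65.4 to 884 ± 107 (0.40, SE 0.09, adjusted p = 0.0018). The calls of *Pdp1*, *Pdp2*, *Ogdh*, *Slc25a25* and *Ppif* were also lost with depth class as a covariate, and that of *Slc25a25* with total-count scaling (−0.17, adjusted p = 0.095). The 2 genes of this list to rise, named after their values were seen, were *Slc25a23* and *Idh3b*. *Slc25a23*, a carrier with EF hands, was at 2349.5 ± 211 and 2884 ± 76.7 (0.30, SE 0.07, adjusted p = 0.0034), and its call was kept under every alternative tried. *Idh3b*, a subunit of isocitrate dehydrogenase, differed by 0.16 (adjusted p = 0.041), and its call was lost with DESeq2 size factors, the authors' factors, counts drawn down and depth class as a covariate, and without any 1 of 6 libraries (Ctrl replicate 1, 2, 4 or 5, β-Mfn1/2DKO replicate 2 or 4), at an adjusted p of 0.053 to 0.098.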

How the data were processed

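RNA-seq libraries of islets from 20 mice were read as 151-cycle pairs. The authors trimmed reads with cutadapt 2.3, aligned them with STAR 2.6.1b to GRCm38, and deposited gene counts from RSEM 1.3.1 as whole numbers; the strand setting is not given in the sources used here. A further deposited table holds a signal that the authors made by dividing counts by factors of DESeq2, and it served only to recover those factors (undefined in 23.9% of cells). All 20 count columns were mapped to groups by the labels, with 0 sample columns unused. Of the gene IDs, 53 had no match in GENCODE M21, from which exon lengths came.

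Counts of all genes were scaled by TMM and fitted with edgeR 4.0.16 in R 4.3.3 (glmQLFit, 1 coefficient per genotype, no covariate). DESeq2 1.42.0 was an alternative, as were other scalings, filters, covariates and sets of libraries. The script was tested on simulated data. Ratios to *Mcu* used a pseudocount of 0.5 and exact permutation tests. Named genes were the 8 members, at most 4 genes per list by smallest p among those that passed against Ctrl, and the 3 most alike to a member called against Ctrl. *Pdp1*, *Slc25a23* and *Idh3b* were named outside this rule, after their values were seen. Members and lists were chosen with earlier results of these data known.

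Same-numbered libraries were compared for pairing. Of 27 pairs, 21 had a correlation of deviations over 0.1, and only between β-Mfn1KO and Ctrl did all 4 pairs exceed it. These 4 pairs (0.11 to 0.49) also share sex. Libraries of the same sex but unlike number varied, at 0.27 (Ctrl 1 with β-Mfn1KO 2), 0.38 (Ctrl 5 with β-Mfn1KO 4) and 0.05 (Ctrl 1 with β-Mfn1KO 3). The check cannot tell pairing from shared sex, and the labels state no pairing. With and without the replicate block 0 of the 8 members were called between β-Mfn1KO and Ctrl.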

Additional observations from a re-analysis of the deposited data

Results flagged for a closer look

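*Letm1* in β-Mfn1KO replicate 4 stood far from the other libraries of its group, at 3537 normalised counts where the other 3 were at 3234 to 3277. Its gap was 0.856 of the range of the group (past the critical value of Dixon's test at 95%), in 1 of 32 gene and group combinations tested, of which chance gives about 1 in 20.

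The step from *Mfn1* present to *Mfn1* lost differed between islets with and without *Mfn2* for *Slc8b1*, by 0.75 on the log2 scale, and for *Micu3*, by −0.35, each by edgeR's test of the interaction. The call was lost for *Slc8b1* in 12 and for *Micu3* in 6 of the 20 fits that each left out 1 library.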

How the results depend on the processing

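Of 8 genes in β-Mfn1/2DKO against Ctrl, where 1 was called, total-count scaling called 4, DESeq2 3, a low-count filter (filterByExpr) 2, the replicate block 2, leaving out the macrophage-high libraries 2 and depth class as a covariate 0. Of all genes tested these settings called 22.2%, 20.5%, 35.2% (of the 15267 kept by the filter), 17.3%, 17.9% and 2.54%, beside 16.5% in the main fit. Leaving out single libraries called 1 to 2, with *Slc8b1* gained without Ctrl replicate 6 and *Mcur1* (0.13, adjusted p = 0.039) without β-Mfn2KO replicate 3. Against β-Mfn2KO, where 1 was called, total-count scaling and leaving out the macrophage-high libraries called 3 (16.5% and 13.3% of all genes, beside 13.0% in the main fit). DESeq2, the filter, only the groups compared, sex as a covariate, the replicate block and leaving out both macrophage-high and acinar-high libraries called 2. Of all genes tested these called 17.9%, 28.6%, 13.0%, 13.7%, 13.8% and 10.1%. Deep libraries alone called 0 (6.30% of all genes). Leaving out single libraries called 1 to 2, where *Slc8b1* was gained without Ctrl replicate 4 or 6, β-Mfn2KO replicate 5 or β-Mfn1/2DKO replicate 3, and *Micu2* without β-Mfn2KO replicate 3. Against β-Mfn1KO, where 3 were called, depth class and leaving out the acinar-high libraries each called 1 (4.31% and 12.5% of all genes, beside 17.4% in the main fit). Leaving out single libraries called 3 to 4, with *Letm1* gained without Ctrl replicate 6. Total-count scaling also called 3 (23.2% of all genes), of which *Slc8b1* was shared, *Smdt1* and *Micu3* were lost, and *Micu2* (0.19, adjusted p = 0.012) and *Mcur1* were gained.

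Between β-Mfn2KO and β-Mfn1KO leaving out single libraries called 0 to 1. Of the 2 genes whose *Mfn1* step differed with *Mfn2*, total-count scaling and the replicate block each called 1 (8.01% and 5.09% of all genes, beside 5.92% in the main fit). The acinar score or depth class as a covariate, counts drawn down to 1 depth, and leaving out the acinar-high libraries, alone or with the macrophage-high ones, each called 0. Of all genes these settings called 4.60%, 3.18%, 5.20%, 4.07% and 4.15%. Leaving out single libraries called 0 to 2. *Slc8b1* was lost there without Ctrl replicate 3, 5 or 6, any β-Mfn1KO replicate, β-Mfn2KO replicate 1, 2 or 4, or β-Mfn1/2DKO replicate 4 or 5 (0.62 to 0.79, adjusted p from 0.055 to 0.086). *Micu3* was lost without β-Mfn1KO replicate 2 or 4, β-Mfn2KO replicate 1, 2 or 4, or β-Mfn1/2DKO replicate 4 (−0.34 to −0.29, adjusted p from 0.053 to 0.066). The cause of these changes was not tested. No called difference of a member changed direction under an alternative. Outside the members, *Gpd2* in β-Mfn1/2DKO against Ctrl went from −0.70 to 0.01 with depth class as a covariate.

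The labels state no pairing, and the block on replicate number is not known to be one in any comparison. With the block as sign changes within numbers, the ratio of *Micu3* to *Mcu* was lower in 5 of 5 pairs (exact p = 0.0625, the smallest 5 pairs allow). Leaving out the macrophage-high libraries was chosen after seeing the data.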
